A study of Mus musculus with 12 samples.

Results

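The insulin-like growth factor (IGF) family was followed here through 10 genes: the ligands Igf1 and Igf2, the receptor Igf1r, the binding proteins Igfbp2, Igfbp3, Igfbp4, Igfbp5, Igfbp6 and Igfbp7, and Igfals. Every probe whose accession maps to 1 of these symbols was taken, which gave 14 of the 39429 probes on the array, 4 for Igf1, 2 for Igfbp2 and 1 for each other gene. The family was chosen by the levels of Igfbp3 in the germ fraction, where it was already known to be higher in knockout mice on these arrays, so all knockout and control values of the germ fraction are given as a description and without a test. Of the 10 genes, 9 passed the filter on dim probes and were among the 25027 genes tested. Igfals did not pass.

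The arrays came from the study of TAp73, the form of the p53 family member p73 that carries the transactivation domain, in germ cell adhesion and maturation. The 4 groups were the Sertoli fraction of TAp73 knockout mice, the Sertoli fraction of control mice, the germ fraction of the same knockout mice and the germ fraction of the same control mice, with 3 arrays each. All 6 mice were C57BL/6J males, and 1 array was made per fraction and mouse. The knockout mice were 120 (4 months old), 86 and 72 (8 months old), and the controls were 99 (5 months old), 73 and 74 (8 months old). The source names call all controls wildtype, whereas the titles call mice 73 and 74 het and only mouse 99 WT. Slide 1 held mice 120 and 99, slide 2 mice 86 and 73, and slide 3 mice 72 and 74, so each slide held 1 mouse of each genotype, and both younger mice shared slide 1. Which exons the knockout lacks is not given in the sources used here.

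IGF1 and IGF2 are secreted growth factors that signal mainly through the IGF1 receptor, a tyrosine kinase that acts on the PI3K-AKT and MAPK cascades. The IGF-binding proteins hold the ligands outside the cell. They lengthen ligand life, keep it from the receptor or release it when peptidases cut them, and some also act without ligand. In the testis, Sertoli, Leydig and peritubular cells are known sources of IGFs and their binding proteins, and IGF signalling takes part in Sertoli cell proliferation and Leydig cell steroid output.

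Levels are log2 of the processed signal relative to the 75th percentile of the same array, so a level of 0 equals that percentile. Levels of different probes are not set against each other. The 75th percentile ranged from 1355 to 5350 signal units over the arrays, and the share of probes well above background was 64.1 to 68.3% on Sertoli arrays and 73.3 to 78.9% on germ arrays. Trp73, the targeted gene, had 3 probes, and all 3 were well above background on all 6 knockout arrays. Its brightest probe, A_52_P410636, ranged from -2.91 to -2.72 in the knockout Sertoli fraction and from -4.01 to -2.13 in the control Sertoli fraction, and from -2.79 to -1.91 in the knockout germ fraction and from -4.28 to -2.68 in the control germ fraction. On A_52_P193555 the knockout arrays lay above all controls of the same fraction, at -2.04 to -1.52 in the knockout Sertoli fraction, against -9.42 to -2.50 in the control one, and at -3.29 to -2.56 in the knockout germ fraction, against -9.40 to -3.63 in the control one. On A_55_P1988133 the genotypes overlapped in both fractions. On each of the 3 probes and in both fractions the knockout mean was the higher one. Some control means include arrays not well above background. On A_52_P193555, 2 of 3 control arrays of each fraction were well above it. On A_55_P1988133, 2 of 3 control germ arrays and 0 of 3 control Sertoli arrays were. Where the probes lie relative to the deleted part is not given in the sources used here, so they check nothing about the deletion, and knockout and control stand for the labels throughout. The labels also name the fractions. Fshr, the FSH receptor of Sertoli cells, was near background throughout the Sertoli fraction (well above it on 0 of 6 arrays). Fibroblast and peritubular myoid markers were high there. The list of Sertoli cell markers was mixed. Of the 22 with a probe, 20 were well above background on all Sertoli arrays of each genotype, and 2 on none. When the fractions of control mice were compared, 8 of the 21 tested were called higher and 10 lower in the Sertoli one. The word Sertoli is therefore used as the label of a fraction and not as a cell type.

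Igf1 encodes the main IGF of adult tissue. Its brightest probe, A_55_P2031631, lay at 2.99, 3.28 and 3.46 in the Sertoli fraction of knockout mice 120, 86 and 72, against 3.08, 3.65 and 3.56 in that of control mice 99, 73 and 74. Germ levels were -2.13, -1.82 and -1.96 for the knockout mice and -1.79, -2.13 and -1.85 for the controls. All Sertoli arrays lay above all germ arrays, and the genotypes overlapped in both fractions. The Sertoli minus germ difference was 5.21 ± 0.21 (log2 ± SE of the fit, here and below) in knockout mice, with an adjusted p of 1.99e-09 (limma, Benjamini-Hochberg over all genes tested), and 5.35 ± 0.21 in control mice (adjusted p 1.46e-09). The knockout minus control difference was -0.19 ± 0.21 in the Sertoli fraction and did not pass (limma, adjusted p 0.9996), and it was -0.04 ± 0.21 in the germ fraction.

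The other 3 probes of Igf1 disagreed in the germ fraction. A_55_P2085974 lay at -4.96, -4.80 and -4.56 in the knockout germ fraction and at -5.96, -5.67 and -6.04 in the control germ fraction. The groups did not overlap, and the knockout lay 1.12 higher, by 0.999, 0.874 and 1.49 on slides 1, 2 and 3. A_55_P2085984 differed by -0.09 and A_55_P2031636 by 0.05 in the same contrast, with overlapping groups. The 4 probes share the accession of 1 transcript. In the Sertoli fraction the genotypes overlapped on each of the 4 probes. All 4 were higher in the Sertoli fraction than in the germ fraction, with differences of 5.21 to 7.15 in knockout mice and 5.35 to 8.23 in control mice.

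**Figure D1:**
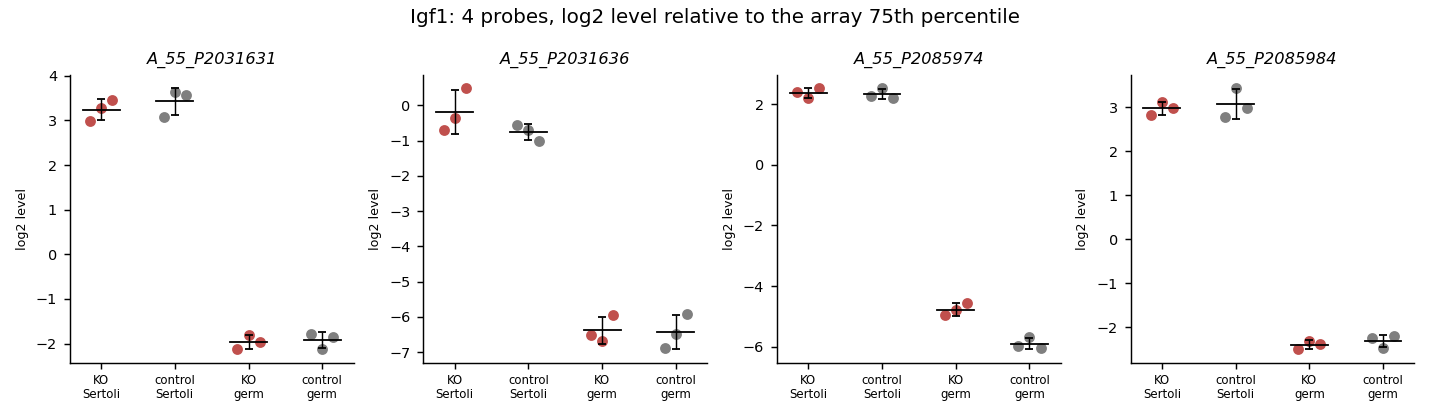
Log2 level of the 4 Igf1 probes relative to the array's 75th percentile (y axis) in the 4 groups (x axis). Points are single arrays, horizontal lines are means, and bars are the SD of 3 arrays. The Sertoli groups lie above the germ groups on every probe, and the knockout germ arrays stand apart from the control germ arrays on A_55_P2085974, at -4.96 to -4.56 against -6.04 to -5.67.

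Igf2, the imprinted growth factor of fetal life, gave weak signal and was well above background on 10 of the 12 arrays. The probe lay at -4.54, -4.23 and -4.40 in the Sertoli fraction of knockout mice 120, 86 and 72, against -4.00, -5.20 and -2.70 in that of control mice 99, 73 and 74. Its germ levels were -6.10, -7.86 and -5.74 in knockout mice, against -8.88, -7.11 and -5.18 in controls, where the arrays of knockout mouse 86 and control mouse 99 were not well above background. The genotypes overlapped in both fractions, and in controls the lowest Sertoli array lay just below the highest germ array. Igf2 was higher in the Sertoli fraction by 2.18 ± 0.90 in knockout mice and by 3.09 ± 0.90 in controls. The gene passed the filter on dim probes only through its Sertoli arrays, so these differences are a description with no test. Their size changed when single mice were left out. In knockouts the difference was 2.49 without mouse 120, 1.45 without mouse 86 and 2.60 without mouse 72. In controls it was 2.20 without mouse 99. Knockout minus control was -0.42 ± 0.90 in the Sertoli fraction (limma, adjusted p 0.9996) and 0.49 ± 0.90 in the germ fraction.

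Igf1r encodes the receptor tyrosine kinase that binds both ligands. It lay at 1.30, 1.37 and 0.99 in the Sertoli fraction of knockout mice 120, 86 and 72, against 1.34, 1.15 and 0.81 in that of control mice 99, 73 and 74. On the germ arrays the levels were -1.82, -1.97 and -1.49 in knockout mice, against -2.68, -2.18 and -2.27 in controls. The germ arrays of the genotypes did not overlap, with the knockout 0.62 ± 0.22 higher and differences of 0.86, 0.21 and 0.78 on the 3 slides, while the Sertoli arrays overlapped (0.12 ± 0.22; limma, adjusted p 0.9996). The Sertoli fraction held more Igf1r than the germ fraction, by 2.98 ± 0.22 in knockouts (adjusted p 2.41e-07) and by 3.47 ± 0.22 in controls (adjusted p 6.09e-08).

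**Figure D2:**
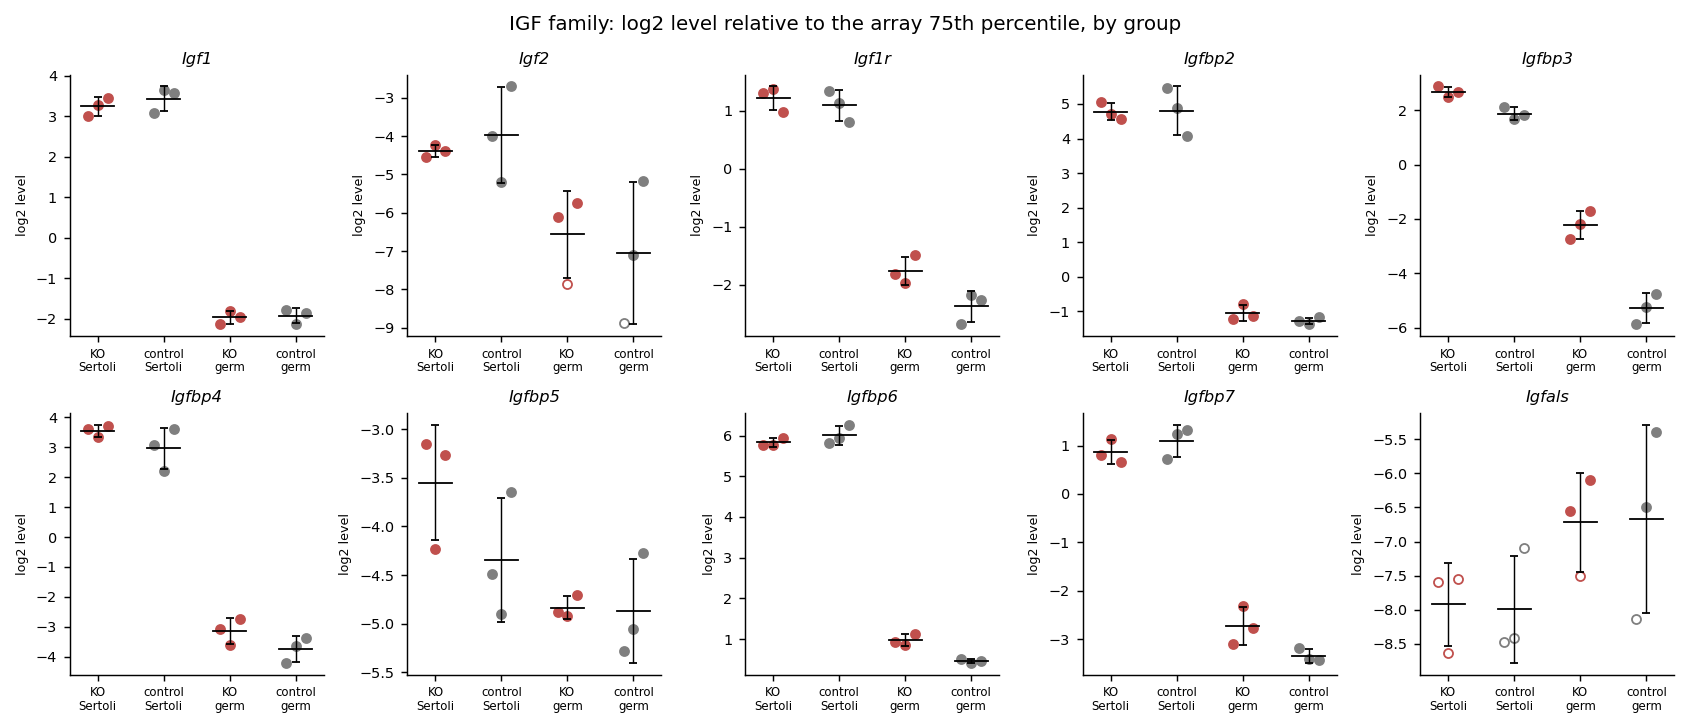
Log2 level of each of the 10 genes relative to the array's 75th percentile (y axis, own scale per gene) in the 4 groups (x axis), on the brightest probe of each gene. Points are single arrays (open where not well above background), horizontal lines are means and bars the SD of 3 arrays. Igfbp3 is the gene whose genotypes stand apart in both fractions.

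The genes of the binding proteins lie in part in pairs. In the RefSeq gene order of GRCm38.p6, Igfbp2 and Igfbp5 are neighbouring protein-coding genes on chromosome 1, and Igfbp1 and Igfbp3 on chromosome 11. The promoter windows of these 4 neighbours are shown so that the genes of a pair can be set side by side, each from 250 bases before to 50 bases after a RefSeq start in build GRCm38.p6, 5′ to 3′ on the strand of the gene. Capitals mark matches, on either strand, to GGGCGG (GC box), TATAA (TATA box), TGANTCA (AP-1 site), CACGTG (E-box) or CATG with NNNNNN and a further CATG after it (core of p53 family sites). Igfbp2 has 2 such windows in the table, and the upstream one is shown.
Igfbp3, chr11:7213874-7214173, minus strand: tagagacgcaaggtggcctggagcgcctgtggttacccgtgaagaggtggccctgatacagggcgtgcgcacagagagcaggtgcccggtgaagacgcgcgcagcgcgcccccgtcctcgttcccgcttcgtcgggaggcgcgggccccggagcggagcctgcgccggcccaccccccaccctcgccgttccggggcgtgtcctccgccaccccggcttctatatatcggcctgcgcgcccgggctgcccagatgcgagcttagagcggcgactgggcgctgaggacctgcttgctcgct
Igfbp1, chr11:7197537-7197836, plus strand: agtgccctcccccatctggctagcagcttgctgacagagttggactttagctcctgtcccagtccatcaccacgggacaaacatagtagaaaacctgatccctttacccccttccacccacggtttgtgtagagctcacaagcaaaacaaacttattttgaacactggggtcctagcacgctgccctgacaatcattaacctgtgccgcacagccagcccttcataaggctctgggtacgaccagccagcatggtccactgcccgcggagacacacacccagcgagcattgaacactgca
Igfbp2, chr1:72824230-72824529, plus strand: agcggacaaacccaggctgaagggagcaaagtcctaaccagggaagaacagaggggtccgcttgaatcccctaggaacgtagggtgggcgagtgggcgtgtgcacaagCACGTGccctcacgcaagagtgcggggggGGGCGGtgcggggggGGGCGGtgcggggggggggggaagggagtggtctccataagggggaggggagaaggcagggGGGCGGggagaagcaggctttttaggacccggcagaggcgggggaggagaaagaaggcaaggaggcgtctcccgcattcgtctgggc
Igfbp5, chr1:72874816-72875115, minus strand: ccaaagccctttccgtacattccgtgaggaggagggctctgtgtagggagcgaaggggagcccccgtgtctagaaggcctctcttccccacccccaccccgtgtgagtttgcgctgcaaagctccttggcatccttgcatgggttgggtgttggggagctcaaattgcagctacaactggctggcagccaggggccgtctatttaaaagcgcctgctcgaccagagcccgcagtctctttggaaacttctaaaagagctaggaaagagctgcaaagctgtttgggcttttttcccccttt
The window of Igfbp2 held 3 GC boxes and 1 E-box, and 35.7% and 7.15% of the 32851 RefSeq windows of this length hold at least 1 of each. None of the 5 motifs was found in the windows of Igfbp3, Igfbp1 and Igfbp5, which says only that these letters are not in these windows. The p53 family core was found in 0.712% of all windows. Other windows of the family are not shown. Among them, the first window of Igfals held 1 p53 family core, at -192 from the start. The second window of Igfbp2 held 1 AP-1 site, at -39. GC content was 71.7% in Igfbp3, 54.3% in Igfbp1, 67.0% in Igfbp2 and 56.3% in Igfbp5.

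Igfbp3 encodes the main carrier of IGFs in blood. In the germ fraction it lay at -2.76, -2.20 and -1.70 in knockout mice 120, 86 and 72, against -5.87, -5.24 and -4.76 in control mice 99, 73 and 74. The highest control array lay 2.01 below the lowest knockout array. The mean was -2.22 ± 0.53 for knockout mice and -5.29 ± 0.56 for controls (SD, n = 3), a difference of 3.07 ± 0.32 or 8.40-fold. The mice of a slide differed by 3.11, 3.04 and 3.06. This is the difference that led to the choice of the family, so it carries no test.

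The choice did not use Sertoli levels, but these come from the same mice and slides as the germ levels and are no independent sample. In the Sertoli fraction Igfbp3 lay at 2.88, 2.49 and 2.67 in knockout mice 120, 86 and 72, against 2.14, 1.66 and 1.84 in control mice 99, 73 and 74. Here too every knockout array lay above every control array, with a gap of 0.35. The difference was 0.80 ± 0.32 or 1.74-fold, at 0.74, 0.83 and 0.82 on the 3 slides. It did not pass over all genes tested (limma, adjusted p 0.9996, unadjusted p 0.0312). The difference between the knockout effects of the fractions was not tested, since the germ values chose the gene. Igfbp3 lay higher in the Sertoli fraction by 4.90 ± 0.32 in knockouts and by 7.17 ± 0.32 in controls, given without a test because both differences use the germ arrays by which the gene was chosen. The order of the group means ran from control germ through knockout germ and control Sertoli to knockout Sertoli, with no overlap between neighbours.

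**Figure D3:**
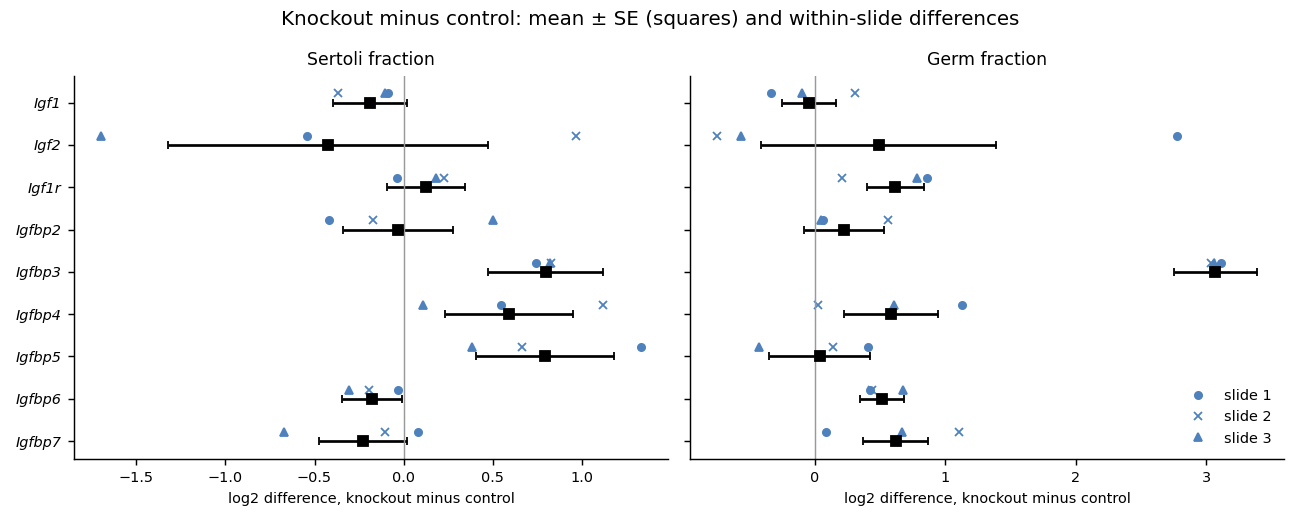
Knockout minus control log2 difference (x axis) of the 9 tested genes (y axis) in the Sertoli fraction (left) and the germ fraction (right), each panel with its own x scale. Squares are differences of the means of 3 arrays with the SE of the fit, and blue points above them are differences between the mice of a slide. Igfbp3 lies at 3.07 in the germ fraction and at 0.80 in the Sertoli fraction, with the 3 slides close together in both.

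Igfbp1, the neighbour of Igfbp3, encodes a binding protein known from the liver and from decidua. It was well above background on none of the 6 Sertoli arrays and on all 6 germ arrays. Its germ mean was -5.60 ± 0.52 for knockout mice and -5.40 ± 0.29 for controls (SD, n = 3). It passed the filter on dim probes only through its germ arrays, so it had to be lower in the Sertoli fraction, and the size of that difference is given as a description with no test. Igfbp1 was at least 2.38-fold lower in the Sertoli fraction of knockouts and at least 2.20-fold lower in that of controls. These bounds set the germ mean against the lowest signal well above background, or the probe's own signal where that was higher.

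Igfbp2 encodes a binding protein with some preference for IGF2. Its brighter probe, A_66_P135391, lay at 5.04, 4.71 and 4.56 in the Sertoli fraction of knockout mice 120, 86 and 72, against 5.47, 4.88 and 4.06 in that of control mice 99, 73 and 74. Germ levels were -1.23, -0.80 and -1.13 in knockout mice and -1.29, -1.36 and -1.17 in controls. The genotypes overlapped in both fractions. The Sertoli minus germ difference was 5.83 ± 0.31 in knockouts (limma, adjusted p 1.61e-08) and 6.08 ± 0.31 in controls (adjusted p 1.02e-08). Knockout minus control was -0.03 ± 0.31 in the Sertoli fraction (limma, adjusted p 0.9996) and 0.22 ± 0.31 in the germ fraction. The dimmer probe, A_55_P2056729, differed by 0.34 in the germ fraction, where its knockout arrays (-1.61 to -1.50) lay just above the control arrays (-2.14 to -1.68).

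Igfbp5, the neighbour of Igfbp2, encodes a binding protein that also attaches to extracellular matrix. Its levels were -3.16, -4.23 and -3.26 in the Sertoli fraction of knockout mice 120, 86 and 72, against -4.49, -4.90 and -3.65 in that of control mice 99, 73 and 74. In the germ fraction they were -4.88, -4.92 and -4.70 in knockout mice and -5.28, -5.05 and -4.27 in controls. The genotypes overlapped in both fractions, while on each slide the knockout Sertoli array lay above the control one, by 1.33, 0.67 and 0.39. That difference was 0.79 ± 0.39 and did not pass (limma, adjusted p 0.9996), and the germ difference was 0.03 ± 0.39. Igfbp5 was higher in the Sertoli fraction by 1.28 ± 0.39 in knockouts (limma, adjusted p 0.0105). In controls the difference was 0.52 ± 0.39 and did not pass (adjusted p 0.236). Without mouse 120 or 72 the difference in knockouts no longer passed (1.06 and 1.21; adjusted p 0.0918 and 0.0633). The control difference passed under quantile normalisation (1.33; adjusted p 0.00037), with array medians as the scale (1.20; adjusted p 0.00214) and in the authors' log2 table (1.28; adjusted p 0.000394).

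Igfbp4 encodes a binding protein that is cut by the peptidase PAPP-A. It lay at 3.61, 3.34 and 3.71 in the Sertoli fraction of knockout mice 120, 86 and 72, against 3.06, 2.22 and 3.60 in that of control mice 99, 73 and 74. In the germ fraction the levels were -3.08, -3.62 and -2.76 in knockout mice and -4.20, -3.64 and -3.36 in controls. In both fractions the knockout array was the higher one on each slide, yet the groups overlapped. Knockout minus control was 0.59 ± 0.36 in the Sertoli fraction (limma, adjusted p 0.9996) and 0.59 ± 0.36 in the germ fraction. The fraction difference was 6.70 ± 0.36 in knockouts (limma, adjusted p 1.86e-08) and 6.70 ± 0.36 in controls (adjusted p 1.67e-08).

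Igfbp6 encodes a binding protein that prefers IGF2 over IGF1. It lay at 5.78, 5.76 and 5.95 in the Sertoli fraction of knockout mice 120, 86 and 72, against 5.81, 5.95 and 6.26 in that of control mice 99, 73 and 74. Germ levels were 0.92, 0.86 and 1.13 in knockout mice and 0.50, 0.42 and 0.46 in controls. The germ arrays of the genotypes did not overlap, with the knockout 0.51 ± 0.17 higher, whereas the Sertoli arrays overlapped (-0.18 ± 0.17; limma, adjusted p 0.9996). The fraction difference was 4.86 ± 0.17 in knockouts (adjusted p 7.82e-10) and 5.55 ± 0.17 in controls (adjusted p 3.14e-10).

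Igfbp7, also called IGFBP-related protein 1, encodes a secreted protein that binds IGFs weakly and insulin. Its levels were 0.80, 1.14 and 0.65 in the Sertoli fraction of knockout mice 120, 86 and 72, against 0.72, 1.24 and 1.32 in that of control mice 99, 73 and 74. The germ levels were -3.10, -2.31 and -2.77 in knockout mice, against -3.18, -3.41 and -3.44 in controls. The germ arrays of the genotypes lay apart by 0.09, with a difference of 0.62 ± 0.25 that was 0.09 on slide 1, 1.11 on slide 2 and 0.67 on slide 3. The Sertoli arrays overlapped (-0.23 ± 0.25; limma, adjusted p 0.9996). Between fractions the difference was 3.59 ± 0.25 in knockouts (adjusted p 1.42e-07) and 4.44 ± 0.25 in controls (adjusted p 2.24e-08).

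Igfals encodes the acid-labile subunit, a liver protein that joins IGF and IGFBP3 or IGFBP5 in the large circulating complex. It was not well above background on any of the 6 Sertoli arrays and was so on 2 of 3 germ arrays of each genotype. Its germ levels were -6.56, -7.51 and -6.10 in knockout mice 120, 86 and 72, against -8.13, -6.49 and -5.39 in control mice 99, 73 and 74. The arrays of knockout mouse 86 and control mouse 99 were the ones not above background, as for Igf2. In knockouts its Sertoli level was at least 1.10-fold lower than its germ level, and controls gave no bound above 1.

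Between the fractions, 7 genes can be counted: Igfbp3 helped to choose the family by its germ arrays, and Igf2 passed the filter only through Sertoli arrays. The 7 others, Igf1, Igf1r, Igfbp2, Igfbp4, Igfbp5, Igfbp6 and Igfbp7, were well above background on all 12 arrays. In knockout mice 7 of 7 were higher in the Sertoli fraction (limma, adjusted p under 0.05), where 37.9% of all genes tested were called higher and 75% were called in either direction. In control mice 6 of 7 were higher, all but Igfbp5, where 39.8% of all genes were called higher and 76.4% in either direction. Among the 17862 genes well above background on all 12 arrays, 45.9% were called higher in knockouts and 48.1% in controls. The median difference of the 7 genes was 4.86 in knockouts, where that of these 17862 genes was 0.51, and 5.35 in controls, where that of these genes was 0.64. Igfbp5 differed by 0.52 between the fractions of control mice and did not pass. The share of higher calls among all calls depended on the scale: it was 50.6% in knockouts and 52.1% in controls with the 75th percentile, and 64.7% in knockouts and 63.2% in controls with the array median. The array median also moved the median difference of all genes tested, 0.09 in knockouts and 0.21 in controls, to 0.94 in knockouts and 0.88 in controls. With bulk fractions, fewer cells of a type and less RNA per cell cannot be told apart.

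**Figure D4:**
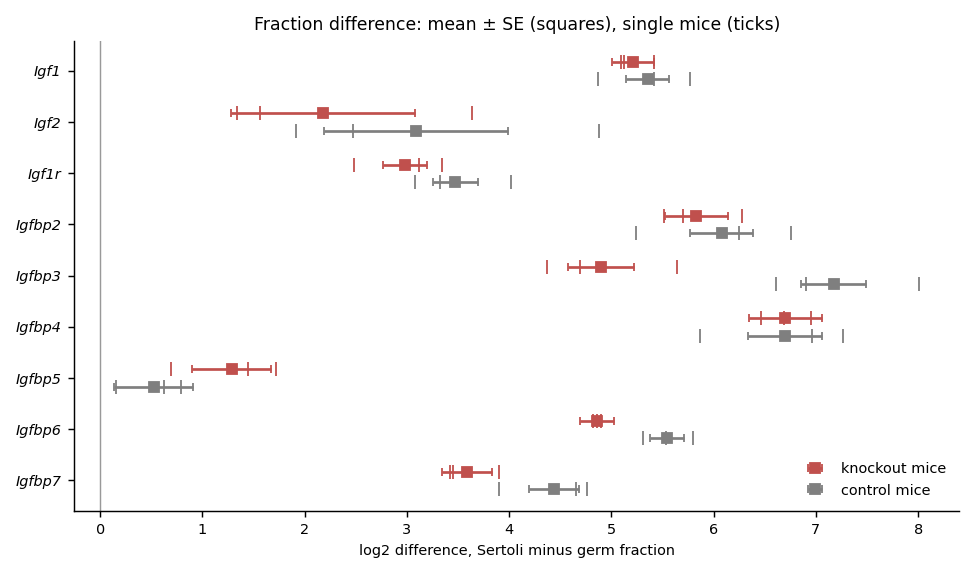
Sertoli minus germ log2 difference (x axis) of the 9 tested genes (y axis) in knockout mice (red, above) and control mice (grey, below). Squares are differences of the means of 3 arrays with the SE of the fit, and ticks are the differences within single mice. The values run from 0.52 (Igfbp5, controls) to 7.17 (Igfbp3, controls).

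Between genotypes, none of the 9 genes passed in the Sertoli fraction (limma), where 0% of all genes tested were called. At an unadjusted p under 0.05 there was 1 of 9, Igfbp3, against 3.02% of all genes tested. Groups that did not overlap with the knockout higher were found for 1 of 9, again Igfbp3, against 1.87% of all genes. The median difference was -0.03, against -0.10 over all genes tested. In the germ fraction 8 of 9 differences were above 0, against 45.5% of all genes, with a median of 0.51 against -0.04 over all genes. Every knockout array lay above every control array for 4 of 9 (Igf1r, Igfbp3, Igfbp6 and Igfbp7), against 6.57% of all genes. Only genes that passed the filter are counted, and nothing is read from the germ counts. Without mouse 99 the median was 0.28, over 10 genes, since Igfals then passed the filter as well.

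Most tested markers of somatic testis cells had a higher mean in the knockout than in the control germ fraction, given as values without a test. Of all genes tested, 45.5% were higher in the knockout germ fraction, with a median difference of -0.04. The 8 tested Leydig cell markers were higher there in 8 of 8, with a median difference of 1.24. Sums of signal, in units of the array's 75th percentile, cover all markers of a list with a probe. For the 9 Leydig cell markers with a probe they were 16.0 to 26.9 in knockout and 7.87 to 16.5 in control germ arrays, so the genotypes overlapped. Of 21 tested Sertoli cell markers 20 were higher (median 0.51). The 22 with a probe summed to 135 to 187 in knockout and to 101 to 130 in control germ arrays. The 7 fibroblast markers (median 0.84, 6 of 7 higher) summed to 3.06 to 4.47 in knockout and to 1.74 to 2.77 in control germ arrays. The 7 peritubular myoid markers (median 0.69, 6 of 7 higher) summed to 36.0 to 42.6 in knockout and to 29.5 to 36.0 in control germ arrays. These myoid sums overlapped slightly. Cyp11a1, the first enzyme of steroid synthesis in Leydig cells, averaged 0.99 in knockout and -1.03 in control germ arrays, and Col1a1, the collagen of fibroblasts, -1.95 in knockout and -2.90 in control germ arrays. The 15 macrophage and leukocyte markers were higher in 12 of 15 (median 0.76), although their sum was lower, at 41.5 to 43.2 in knockout and 45.7 to 55.7 in control germ arrays. The 10 endothelial markers had a median of 0.32 (10 of 10 higher), erythroid markers of 0.18, spermatogonial markers of 0.0014, spermatocyte markers of -0.08 and spermatid markers of -0.34. The part of these shifts in the germ differences of Igfbp3 and the other genes was not tested.

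Between fractions, 7 of 7 fibroblast markers and 7 of 7 peritubular myoid markers were called higher in the Sertoli fraction of controls. Fibroblast markers summed to 262 to 407 in the knockout and to 285 to 628 in the control Sertoli fraction, and myoid markers to 404 to 584 in the knockout and to 544 to 850 in the control Sertoli fraction. Of the 21 Sertoli cell markers, 8 were called higher and 10 lower in the Sertoli fraction of controls. Rhox5, a homeobox gene of Sertoli cells, was lower there by 5.28 on the log2 scale (-3.03 in the Sertoli and 2.25 in the germ fraction), while Sox9 was higher by 1.43. All 9 spermatocyte and all 11 spermatid markers were called lower. The part of cell makeup in the fraction differences of the IGF genes was not tested.

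**Figure D5:**
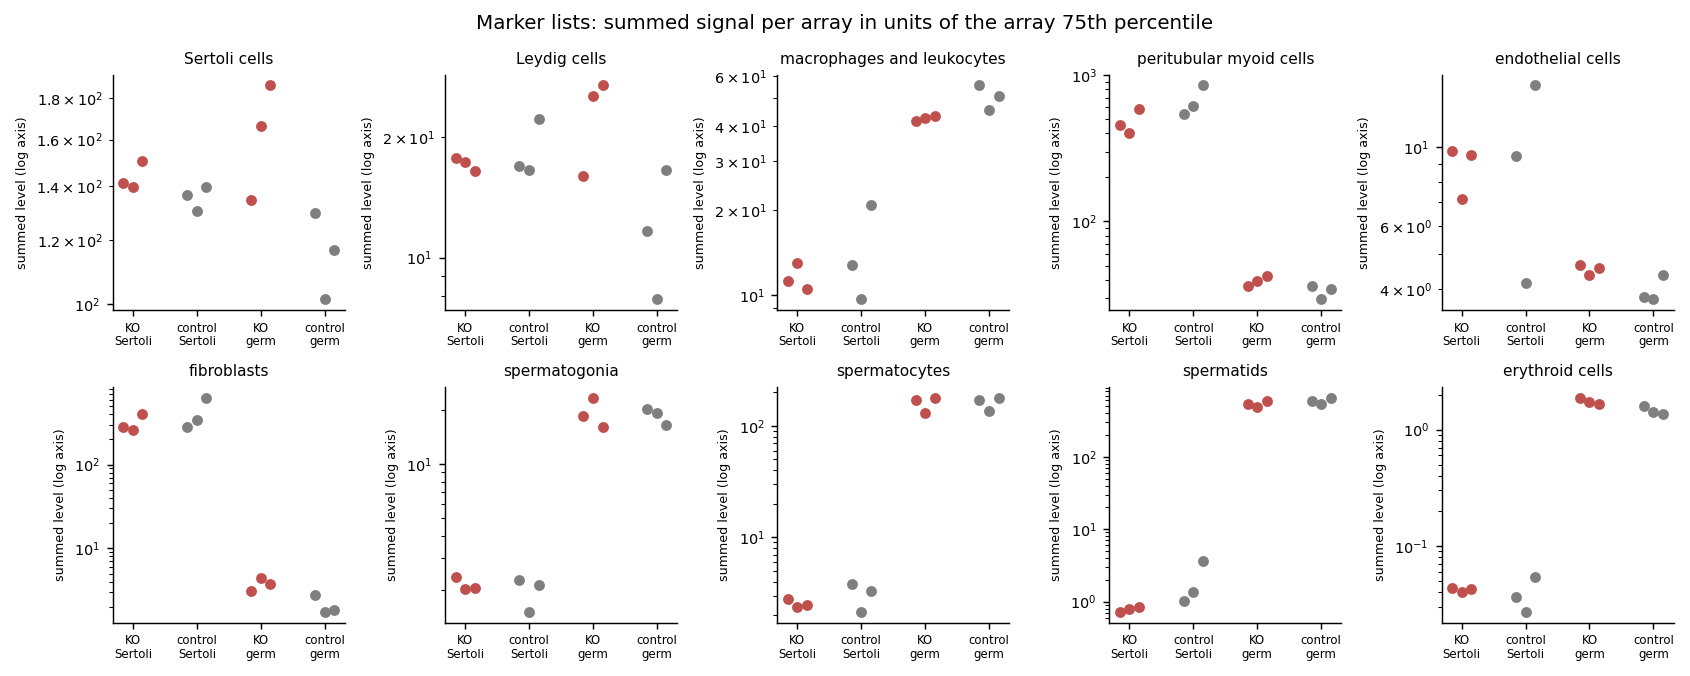
Summed signal of each marker list per array, in units of the array's 75th percentile (y axis, log scale, own range per panel), in the 4 groups (x axis, 3 arrays each). Fibroblast and peritubular myoid markers are high in the Sertoli fraction, and the Leydig cell list is at 16.0 to 26.9 in knockout and 7.87 to 16.5 in control germ arrays.

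Around the family stand 58 other genes of the IGF and insulin pathway, of which 56 had a probe and 52 were tested. In the Sertoli fraction none passed between genotypes (limma), where 0% of all genes tested were called. At an unadjusted p under 0.05 there were 2 of 52, Insr and Insl6, against 3.02% of all genes tested. Nothing is read from this count. Germ differences between genotypes are given as values. Between fractions, 33 were called higher and 10 lower in the Sertoli fraction of knockouts, and 35 higher and 9 lower in that of controls. Of all genes tested, 37.9% and 37.1% of all genes were called higher and lower in knockouts and 39.8% and 36.5% in controls. Some of the 52 passed the filter through 1 fraction only. Of the 41 that were well above background on all 12 arrays, 31 were called higher and 4 lower, in knockouts and in controls alike in number, with a median difference of 1.82 in knockouts and 1.69 in controls. Of all genes well above background on all 12 arrays, 45.9% were called higher in knockouts and 48.1% in controls. Their median difference was 0.51 in knockouts and 0.64 in controls. The counts of the lists below stand beside the same shares. Values below are those of the brightest probe of a gene.

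The peptidases that free IGF from its binding proteins, and their inhibitors, had 5 genes tested. Pappa2 passed the filter only through its control Sertoli arrays and is not counted. The 4 others, Pappa, Stc2, Htra1 and Adam12, were well above background on all 12 arrays, and 4 of 4 were called higher in the Sertoli fraction in both genotypes. Pappa, which encodes the PAPP-A peptidase of IGFBP4, was higher by 5.40 ± 0.26 in knockouts and by 5.91 ± 0.26 in controls. Stc2, whose product stanniocalcin-2 inhibits PAPP-A, was higher by 6.00 ± 0.27 in knockouts and by 7.14 ± 0.27 in controls. Htra1, a secreted serine peptidase, was higher by 5.25 ± 0.41 in knockouts (limma, adjusted p 4.26e-07) and by 6.55 ± 0.41 in controls (adjusted p 6.02e-08). Pappa, Stc2 and Htra1 differed by -0.16, -0.22 and -0.39 between genotypes in the Sertoli fraction and did not pass. Their germ differences were 0.35, 0.91 and 0.92.

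Among other ligands and receptors of the family, 5 of 11 tested were well above background on all 12 arrays, and of these 3 were called higher and 1 lower in the Sertoli fraction of either genotype. Igf2r, which encodes the receptor that clears IGF2, was higher by 3.27 ± 0.15 in knockouts and by 3.26 ± 0.15 in controls. Ghr, the growth hormone receptor, was higher by 4.36 ± 0.26 in knockouts and by 3.82 ± 0.26 in controls. Insl6, a relaxin family peptide of male germ cells, was lower, with differences of -4.71 ± 0.15 in knockouts and -4.49 ± 0.15 in controls. Insr, the insulin receptor, was higher by 2.62 ± 0.25 in knockouts and by 1.99 ± 0.25 in controls on its brightest probe, whereas its probe A_55_P2173927 averaged -5.34 in the Sertoli and -4.25 in the germ fraction of knockouts. In the Sertoli fraction Insr lay at -1.24 ± 0.34 in knockouts and at -2.07 ± 0.40 in controls (SD, n = 3), a difference of 0.82 ± 0.25 that did not pass (limma, adjusted p 0.9996).

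Below the receptor, 31 tested adaptors and kinases were well above background on all 12 arrays. Of these, 23 were called higher and 3 lower in the Sertoli fraction of knockouts, and the same numbers in that of controls. Each was counted by its brightest probe, and other probes could differ in direction. In knockouts Pdpk1 averaged 0.90 in the Sertoli and 2.33 in the germ fraction on that probe, but 1.59 and 0.77 on A_55_P2014361. Gsk3b averaged 2.24 and -0.37 on its brightest probe, but -1.51 and -0.02 on A_51_P514412. Irs1, the adaptor that couples the insulin and IGF1 receptors to PI3K, was higher by 5.58 ± 0.33 in knockouts and by 7.04 ± 0.33 in controls. Eif4ebp1, the mTOR-controlled inhibitor of translation, was higher by 4.37 ± 0.17 in knockouts and by 4.77 ± 0.17 in controls, and Map2k1, the MEK1 kinase, by 4.12 ± 0.19 in knockouts and by 4.30 ± 0.19 in controls. Irs1 averaged -4.84 in knockout and -6.03 in control germ cells, a difference of 1.20 ± 0.33. The IGF2 mRNA-binding proteins were split. Igf2bp2 was higher in the Sertoli fraction, by 5.37 ± 0.27 in knockouts and by 5.22 ± 0.27 in controls, while Igf2bp1 (-4.56 in knockouts, -4.89 in controls) and Igf2bp3 (-4.80 in knockouts, -5.25 in controls) were lower. Igf2bp1 was well above background on 10 and Igf2bp3 on 11 of the 12 arrays.

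The genes whose levels ran most like those of Igfbp3, by Pearson r over the 12 arrays after the mean of each fraction was subtracted, were Mdfic (0.979), Clip3 (0.974), Tnni1 (0.972), Hspb8 (0.969) and Casp8 (0.957). Mdfic encodes a MyoD family inhibitor domain protein, Clip3 a CAP-Gly domain linker, Tnni1 the slow skeletal troponin I, Hspb8 a small heat shock protein and Casp8 an initiator caspase. The arrays share slides, mice and genotype, and the genes were picked for this likeness out of all those tested with a symbol, so the values are a description. Knockout minus control was 0.19, 0.13, 0.24, 0.48 and 0.36 for these 5 genes in the Sertoli fraction and 1.27, 1.38, 2.25, 3.38 and 1.40 in the germ fraction, in the same order. Within the family, the same measure was 0.82 for Igf1r, 0.69 for Igfbp6, 0.62 for Igfbp4, 0.51 for Igfbp7, 0.28 to 0.29 for Igfbp5, Igfbp2 and Igf2, and -0.21 for Igf1. Genotype means were not subtracted, so the germ difference of Igfbp3 that chose the family is part of this measure. The values therefore do not show that genes vary together within a genotype.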

How the data were processed

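The 12 arrays are 1-colour Agilent mouse arrays. Per the file headers, images were read with Feature Extraction 10.7.3.1, and the deposited intensity used here, the processed signal, was background-subtracted by that software and not scaled between arrays. The deposited median spot and background intensities are, per the file headers, not corrected. A deposited table of the authors' log2 values served as an alternative. The submitters' processing notes name limma.

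From the files, 1377 control spots and spots flagged as outliers were left out, spots of a probe were averaged, and log2 values were set relative to the 75th percentile of their array. Names came from matching accessions to RefSeq (GRCm38.p6; 26055 of 39429 probes). Probes well above background on all 3 arrays of a group were kept (30530), and the brightest stood for its gene (25027 genes, 16590 with a symbol). limma 3.58.1 (R 4.3.3) fitted 4 group means, with Benjamini-Hochberg adjusted p under 0.05 as the threshold, and was tested on simulated data. All members were named. Of the pathway lists, genes past the threshold (up to 6 per list and comparison) or else the 3 of smallest p could be named, and of other genes the 5 most like Igfbp3. Members, lists and rules were chosen with earlier results of these data known. Whether each mouse was processed apart from the others is not given in the sources used here, so p-values measure the spread between these arrays.

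The number in a title names the animal, and both fractions share it, so arrays are paired by mouse. Across genes, how far an array lay from its group mean correlated between a mouse's 2 fractions with r 0.256, 0.283 and 0.203 in knockout mice 120, 86 and 72 and -0.161, -0.116 and 0.463 in control mice 99, 73 and 74.

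Alternatives were quantile or median scaling, normexp background correction (offset 50), the deposited log2 table, other probe filters and summaries, mouse or slide as a block, and leaving out mice. The files hold no mean spot intensity, so normexp used the median, and 26 spots with a local background over 5 times the array's median were given that median. The number of arrays limits the precision.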

Additional observations from a re-analysis of the deposited data

Results flagged for a closer look

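Igfbp6, whose product prefers IGF2, had knockout minus control differences of unlike sign in the fractions. Knockout minus control was -0.03, -0.19 and -0.31 in the Sertoli fraction and 0.42, 0.44 and 0.67 in the germ fraction on slides 1, 2 and 3, so all 3 slides were negative in one fraction and positive in the other. The germ difference exceeded the Sertoli difference by 0.69. The difference between the fractions was not tested. The Sertoli mean difference of -0.18 did not pass (limma, adjusted p 0.9996), the genotypes overlapped, and its sign depended on the processing: it was 0.059 under quantile normalisation, 0.060 in the deposited table and 0.019 without both control mice titled het.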

How the results depend on the processing

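Across 18 or 19 alternatives, the number of IGF genes called between genotypes in the Sertoli fraction was 0 in each. Between fractions, Igf1, Igf1r, Igfbp2, Igfbp4, Igfbp6 and Igfbp7 passed in both genotypes in each, and Igfbp5 in part of them. Igfbp3 and Igf2 are left out here, as they carry no test between fractions. Of all genes tested, 75% in knockouts and 76.4% in controls were called between fractions in the main fit. For the pathway genes the number called between genotypes in the Sertoli fraction was 0 in each. Between fractions it was 35 to 48 in knockouts and 35 to 50 in controls, genes that passed the filter through 1 fraction included. The number of pathway genes tested, 52 in the main fit, changed with the filter. The mouse as a replicate block changed no call of the 7 IGF genes counted between fractions. The median germ difference of the family, 0.51, was 0.31 with only the 8-month-old mice and 0.28 to 0.57 when 1 mouse was left out. The genes are not the same in all these fits. Igfals passed the filter as well, which gave 10 genes, with only the 8-month-old mice and without mouse 86 or 99. The germ difference of Igfbp3 was 2.39 (normexp) to 3.65 (without both control mice titled het, leaving 1 control mouse) and its Sertoli difference 0.54 to 0.93. The fraction call of Igfbp5 in knockouts was lost without single mice, as given above. It was also lost with only the 8-month-old mice, where fewer arrays are fitted (1.06; limma, adjusted p 0.130). The fraction difference of Igf2 in these mice was 2.49 in knockouts and 2.20 in controls, given without a test.

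In the Sertoli fraction some knockout minus control differences changed sign, none of them past the threshold in any fit. Igf1 was 0.083 with the mean of its probes. Without both control mice titled het, Igf1 was 0.16, Igf1r -0.12, Igfbp6 0.019 and Igfbp7 0.15. Igfbp2 was 0.069 under quantile normalisation, 0.035 with array medians, 0.019 with normexp, 0.071 in the deposited table and 0.17 with the 8-month-old mice, and Igfbp6 was 0.059 under quantile normalisation and 0.060 in the deposited table. Leaving out 1 mouse gave -1.04 to 0.21 for Igf2, -0.021 to 0.25 for Igf1r and -0.40 to 0.30 for Igfbp2. In the germ fraction the knockout minus control differences of Igf1, Igf2 and Igfbp5 also changed sign. Across the alternatives they were -0.18 to 0.26 for Igf1, -0.66 to 2.31 for Igf2 and -0.17 to 0.45 for Igfbp5. Igf2 and Igfals are limited by signal near background.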
